A study of Mus musculus with 47 samples.

Results

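The genes described here are 9 growth genes known from fetal tissues, progenitor cells and tumours. They are Igf2bp1, Igf2bp2 and Igf2bp3, Lin28a and Lin28b, Hmga1 and Hmga2, and the cell surface genes Prom1 and Epcam. They were chosen by name, as growth genes of this kind that stand beside Igf2, and make up 9 of the 22225 protein-coding genes on the annotated chromosomes. For each gene, the percent of its mm9 span lying in called H3K27me3 regions and the number of H3K27ac and H3K4me1 peaks within 10 kb of that span were read from every deposited list.

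The lists come from ChIP-seq of frozen whole liver of 7 week old male and female mice. Control mice carried floxed Ezh2 alleles (Ezh2 f/f) with Ezh1 intact. Double knockout mice (E1/E2-KO, here DKO) were Ezh1-/-, Ezh2 f/f and carried the Alb-Cre transgene. The floxed Ezh2 alleles are thus shared by both genotypes. The albumin promoter drives Cre in hepatocytes, so that endothelial, Kupffer and stellate cells keep Ezh2 while lacking Ezh1. The sample records list 47 samples, and the reads of the livers of a group were joined into 1 peak list per group and mark, 12 lists in all. Every list draws on 4 livers, except 3 for H3K4me1 in DKO female liver. With 1 list per group there is no replicate, so no test was made, no error can be given, and each difference below compares 2 pooled lists. The lists hold positions without scores or read counts, so sequencing depth and signal strength are unknown, and they cannot show the deletion of Ezh1 or Ezh2 itself.

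Ezh1 and Ezh2 are the catalytic subunits of Polycomb repressive complex 2, which methylates lysine 27 of histone H3, and H3K27me3 marks genes held silent. H3K27ac, on the same residue, marks active promoters and enhancers, and H3K4me1 marks enhancers and the flanks of promoters. Lin28a and Lin28b block maturation of the let-7 microRNAs. let-7 in turn represses the Igf2bp genes and Hmga2, so these genes form one fetal growth axis with Igf2, whose mRNA the Igf2bp proteins were named for binding.

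The start regions of these genes differ in base composition, and they are shown because the activating mark at the start was called at some of them and not at others. The following sequences are the 250 bases just upstream of the RefSeq start, 5′ to 3′ on the transcribed strand, from the RefSeq table of build GRCm38.p6. Each was matched to mm9, where it occurs at the position given below, and CG dinucleotides are in capitals. The 5 windows shown lie upstream of every listed start of their gene.
Hmga1: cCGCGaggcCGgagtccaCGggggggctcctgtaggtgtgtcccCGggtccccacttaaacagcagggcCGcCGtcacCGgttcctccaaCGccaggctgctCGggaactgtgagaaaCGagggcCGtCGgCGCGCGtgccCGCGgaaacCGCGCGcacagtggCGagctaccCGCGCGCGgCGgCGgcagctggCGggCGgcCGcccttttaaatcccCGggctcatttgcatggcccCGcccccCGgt
Igf2bp2: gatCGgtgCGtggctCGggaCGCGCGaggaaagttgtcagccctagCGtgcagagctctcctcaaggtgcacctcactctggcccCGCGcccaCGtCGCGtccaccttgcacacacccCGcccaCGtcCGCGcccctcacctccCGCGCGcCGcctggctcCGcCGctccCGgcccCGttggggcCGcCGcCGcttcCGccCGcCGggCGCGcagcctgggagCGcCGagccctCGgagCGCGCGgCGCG
Igf2bp3: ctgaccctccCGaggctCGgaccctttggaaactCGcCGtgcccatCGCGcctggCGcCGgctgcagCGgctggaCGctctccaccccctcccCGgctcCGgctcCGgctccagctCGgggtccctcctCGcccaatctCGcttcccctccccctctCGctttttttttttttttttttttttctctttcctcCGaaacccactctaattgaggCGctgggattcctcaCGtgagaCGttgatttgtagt
Hmga2: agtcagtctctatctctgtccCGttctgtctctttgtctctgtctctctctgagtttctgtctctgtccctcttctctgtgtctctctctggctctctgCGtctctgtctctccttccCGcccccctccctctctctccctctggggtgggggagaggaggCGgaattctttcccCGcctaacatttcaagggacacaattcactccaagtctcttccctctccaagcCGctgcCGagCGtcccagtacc
Epcam: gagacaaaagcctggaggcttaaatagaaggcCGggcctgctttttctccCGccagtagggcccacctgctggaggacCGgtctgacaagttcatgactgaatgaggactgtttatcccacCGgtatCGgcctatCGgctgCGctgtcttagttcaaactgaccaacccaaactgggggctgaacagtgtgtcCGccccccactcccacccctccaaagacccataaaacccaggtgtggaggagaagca
In mm9 these windows are chr17:27693269-27693518 (plus strand) for Hmga1, chr16:22163373-22163622 (minus strand) for Igf2bp2, chr6:49164954-49165203 (minus strand) for Igf2bp3, chr10:119913526-119913775 (minus strand) for Hmga2 and chr17:88035069-88035318 (plus strand) for Epcam. The motif searched was CG, which reads the same on both strands. It occurs 40 times upstream of Igf2bp2, and 1.30% of the first listed promoters of 27025 genes hold as many. The Hmga1 window holds 34 (3.36% of promoters hold as many) and the Igf2bp3 window 21 (16.1%). The Hmga2 and Epcam windows hold 8 each (43.4%), and the median promoter holds 6. Of the others with an entry, the Prom1, Lin28a and Lin28b windows hold 9, 7 and 6. The Igf2bp1 promoter has no entry in the table, so that 8 of the 9 genes were matched.

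H3K27me3 covered most of these genes in control male liver, and their starts stayed inside called regions after loss of Ezh1 and Ezh2. Median coverage of the 9 spans was 96.5% in control male, 90.9% in DKO male, 44.8% in control female and 51.6% in DKO female liver, and the median over all protein-coding genes was 0% in each list. At least 50% of the span was covered at 8 genes in control male, 7 in DKO male, 4 in control female and 5 in DKO female liver. The share of all genes covered to this extent was 29.9%, 32.5%, 29.7% and 28.7%, in the same order. The start lay inside a region at 9, 9, 8 and 8 of the 9 genes, against 34.7%, 39.1%, 35.4% and 34.2% of all genes. Hmga1 in female liver is the exception in both genotypes.

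**Figure D1:**
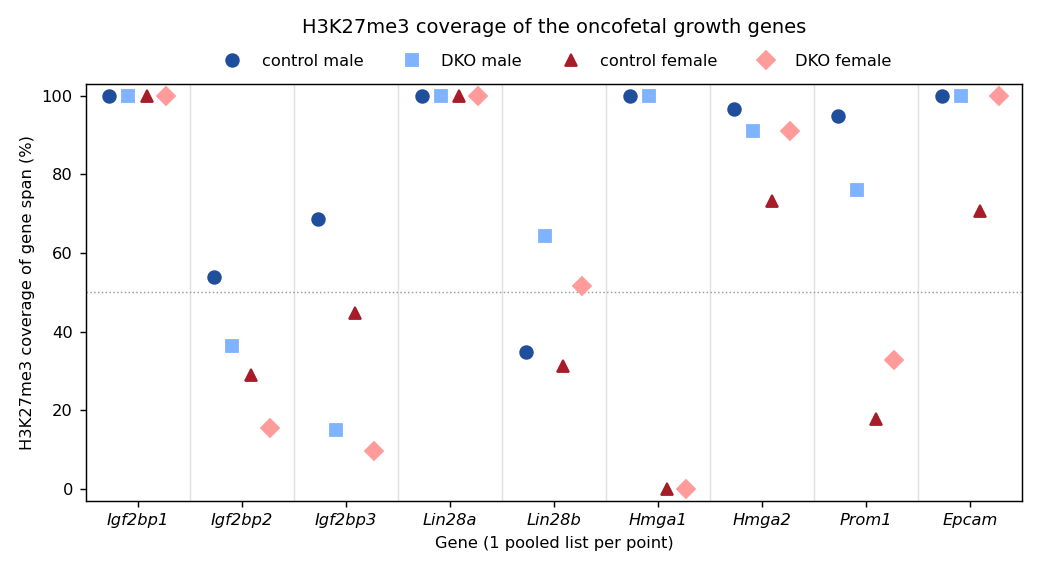
Percent of each gene span (vertical axis) lying in called H3K27me3 regions, 1 point for each of the 4 pooled lists and no error bar because no list has a replicate; the dotted line is at 50%. Igf2bp1 and Lin28a sit at 100% in every list, and Igf2bp3 falls from 68.6% to 14.9% in male and from 44.8% to 9.68% in female liver.

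Igf2bp3 was the 1 gene of the 9 whose coverage by H3K27me3 was at least 25 percentage points lower in DKO liver of both sexes. It encodes an RNA-binding protein, abundant in fetal tissues and tumours, that binds Igf2 mRNA. The gene (ENSMUSG00000029814.8, chr6:49035220-49164953, minus strand) is 129.734 kb long, and its model has 15 exons. Coverage was 68.6% in control male, 14.9% in DKO male, 44.8% in control female and 9.68% in DKO female liver, a difference of -53.6 percentage points in males and -35.1 in females. Both DKO values lie below both control values. When only the widest 50% of the regions of each list were kept, the differences were -23.4 and -26.2 points, so that the male value no longer passed the threshold. A fall of 25 points or more was met by 6.07% of all genes in male and 7.57% in female liver, and 1 of the 9 genes fell in each sex. Falls as large as that of Igf2bp3 were seen at 3.47% of genes in male and 5.95% in female liver. These shares count every gene, although only a gene covered in the control list can fall. The median gene was 0% covered in the control list of either sex. In these lists, 29.9% (male) and 29.7% (female) of genes were at least 50% covered. The share among covered genes was not computed, so the fall at Igf2bp3 cannot be called rare among them.

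The loss lay in the gene body and not at the start. In control male liver 4 regions reached the gene, of 41.2, 16, 23.2 and 38.8 kb from its 3′ end to its start. In control female liver there were 3, of 34.8, 11.6 and 36 kb. In DKO liver only the region over the start was called, at chr6:49145601-49189200 in males (43.6 kb) and chr6:49152401-49189600 in females (37.2 kb). That region spans the start in all 4 lists, and all 250 bases of the upstream sequence shown above lie inside it in each list. Within 2 kb on each side of the start the difference between genotypes was 0 points in both sexes.

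**Figure D2:**
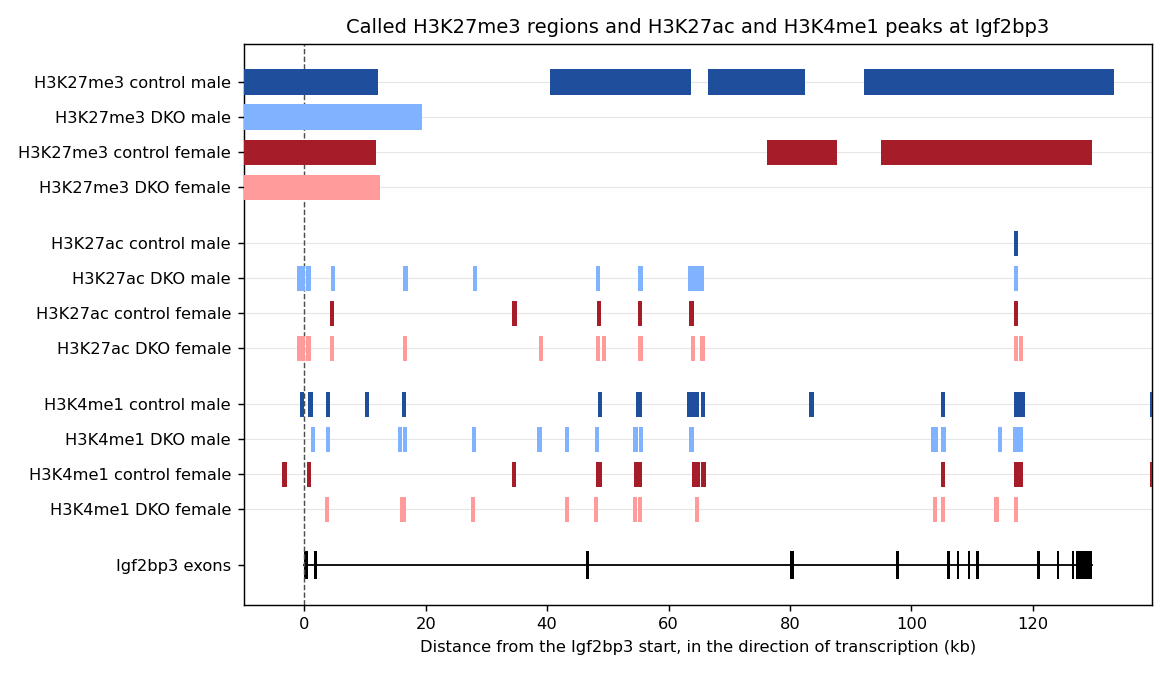
Called H3K27me3 regions and H3K27ac and H3K4me1 peaks of the 12 pooled lists along Igf2bp3, by distance from its start in kb (horizontal axis, direction of transcription to the right), with exons of 1 transcript model in black; peaks narrower than 0.7 kb are drawn 0.7 kb wide and exons narrower than 0.4 kb are drawn 0.4 kb wide to be visible, so that close neighbours can touch. The DKO lists keep only the H3K27me3 region over the start, and they hold 12 and 13 H3K27ac peaks against 1 and 6 in the control lists.

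H3K27ac was gained at Igf2bp3, including at its start. Within 10 kb of the span, 1 peak was called in control male, 12 in DKO male, 6 in control female and 13 in DKO female liver. Merged over the lists these make 16 sites. A single site, in intron 10, was called in all 4 lists, and 4 further sites were called in every list but control male. Another 5 were called in both DKO lists and in neither control list. Of these 5, a trio flanks the start. In DKO male liver the nearest edges of these peaks lay at 290, -98 and -772 bp from the start, negative values being upstream, with widths of 810, 340 and 274 bp. In DKO female liver the edges lay at 315, -136 and -713 bp, with widths of 761, 254 and 257 bp. The other pair of sites lay in introns, 16540 and 65452 bp from the start. A site in intron 2, 34459 bp from the start, was called in control female liver alone. It is the 1 H3K27ac peak lost at Igf2bp3 in females, and 0 were lost in males. The upstream sequence of Igf2bp3 shown above has 153 of its bases in an H3K27ac peak in DKO male and 115 in DKO female liver, and 0 in either control list.

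H3K4me1 was present at Igf2bp3 in every list, with 16 peaks in control male, 17 in DKO male, 12 in control female and 12 in DKO female liver. These like totals held different peaks, with 7 gained and 6 lost in males and 6 gained and 6 lost in females. Within 1 kb of the start H3K4me1 was called in both control lists and in neither DKO list, the reverse of H3K27ac. The nearest DKO peaks lay 1272 bp (male) and 3624 bp (female) inside the gene. Of its 23 merged sites, 5 were in all 4 lists, 3 in both DKO lists alone and 1 in both control lists alone. In male liver, 8 of the 11 H3K27ac peaks gained at Igf2bp3 overlapped an H3K4me1 peak of the control list (72.7%), beside 53.6% of all 30485 gained H3K27ac peaks. In female liver, 3 of 8 did (37.5%), beside 39.1% of all 12739. Likewise, 7 of the 11 male and 4 of the 8 female gained peaks lay in H3K27me3 regions of the control list, beside 29.9% and 33.1% of all gained peaks.

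Igf2bp3 combined a fall in H3K27me3 with new H3K27ac at its start, each found at few of all genes. This combination was chosen after its values were seen and is a description without a test. Whether the features occur together more or less often than their separate shares would give was not tested. A fall of 25 points or more in both sexes was found at 618 genes (2.78%). This share too counts genes without coverage in the control lists, which cannot fall. An H3K27ac peak within 1 kb of the start in both DKO lists and in neither control list was found at 285 (1.28%), and both features at 11 (0.0495%). In 3 of these (0.0135%) the start also stayed inside an H3K27me3 region in all 4 lists. The endothelial marker Cdh5 is among these 3, with differences of -73.7 points in males and -51.3 in females. Eng, another endothelial marker, is among the 11. Rises in the number of H3K27ac peaks as large as at Igf2bp3 in both sexes were found at 13 genes (0.0585%), a count that favours long genes.

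The control male H3K27ac list is the shortest of its mark, with 29359 peaks, against 55930 in DKO male, 49702 in control female and 51253 in DKO female liver. Comparing equal numbers of the widest peaks of each list, a check chosen after seeing the data, left 1, 5, 4 and 7 H3K27ac peaks at Igf2bp3. Of these, 0, 1, 0 and 1 were within 1 kb of the start. Markers of endothelial cells, which keep Ezh2, moved in the same way. H3K27me3 coverage fell by 25 points or more at 4 of 6 (Pecam1, Cdh5, Stab2 and Eng) in both sexes, beside the 6.07% and 7.57% of all genes given above, and H3K27ac was gained at 6 of 6 in both, beside 47.6% of all genes in males and 28.8% in females, while 3 of 6 in males and 4 of 6 in females also lost a peak, beside 9.55% and 31.8%. Among other cells that keep Ezh2, coverage fell at 0 of 6 stellate cell markers in either sex, and at 0 of 6 Kupffer cell markers in males and 1 of 6 in females. H3K27ac was gained at 2 of 6 stellate and 1 of 6 Kupffer cell markers in males and at 4 of 6 and 1 of 6 in females. At the 6 hepatocyte markers it was gained at 6 and lost at 1 in males, and gained at 2 and lost at 6 in females. The 6 endothelial genes together had 8, 33, 25 and 30 H3K27ac peaks in control male, DKO male, control female and DKO female liver. Their part in the result at Igf2bp3 was not tested. In whole liver, a change in the share of a cell type and a change of marks within its cells cannot be told apart.

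The paralogs of Igf2bp3 differed from it. Igf2bp2, an RNA-binding protein that is also expressed in adult tissues, lies at chr16:22059082-22163372 (minus strand, 104.291 kb). Its coverage was 53.9% in control male, 36.2% in DKO male, 28.9% in control female and 15.5% in DKO female liver. The difference was -17.6 points in males and -13.4 in females, so neither passed 25 points. Coverage was lower in DKO than in control liver of each sex, while DKO male liver still exceeded control female liver. The region over the start was called in all lists, with widths of 62, 66.4, 50.8 and 41.2 kb in that order, and a second region of 15.6 kb in the gene body was called in control male liver alone.

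H3K27ac at Igf2bp2 numbered 0 peaks in control male, 5 in DKO male, 3 in control female and 6 in DKO female liver. Of 6 merged sites, 3 were in both DKO lists and neither control list, all in intron 2 and 31988, 21651 and 12268 bp from the start. A peak of 1711 bp lay over the start in DKO male liver, and peaks began 365 bp inside it in control female and 400 bp inside it in DKO female liver. Control male liver was therefore the one list without H3K27ac at this CG-rich start. H3K4me1 peaks numbered 9, 9, 7 and 5 in the 4 lists.

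Igf2bp1, like Igf2bp3 a protein of fetal and tumour cells, lies at chr11:95818477-95867254 (minus strand, 48.778 kb) and was 100% covered in all 4 lists, each time by a single region of 132.8, 173.2, 172 and 102 kb. H3K27ac was not called in either control list, and 2 peaks were called in DKO male and 1 in DKO female liver. The shared one lay in intron 2, 14128 bp from the start, and the other in intron 1, 1101 bp from it. H3K4me1 peaks numbered 2 in control male, 4 in DKO male, 2 in control female and 4 in DKO female liver. A site at the start was called in all 4, with peaks over the start in 3 lists and a peak at -193 bp, upstream of it, in DKO female liver. New H3K27ac thus appeared within Igf2bp1 while the whole span remained inside a called H3K27me3 region.

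**Figure D3:**
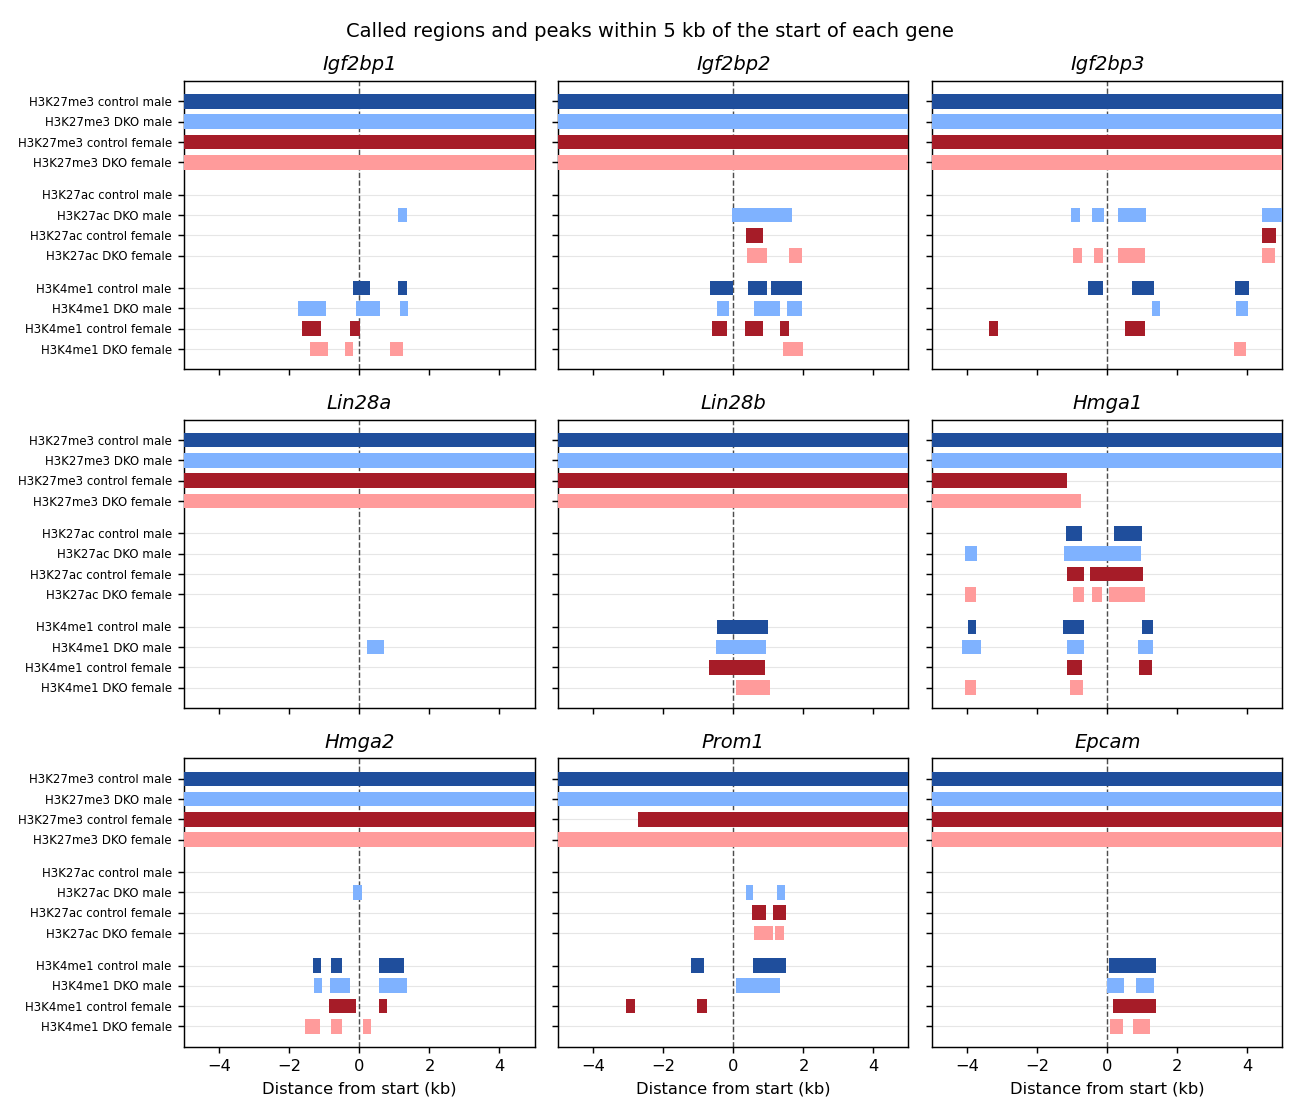
Called H3K27me3 regions and H3K27ac and H3K4me1 peaks within 5 kb of the start of each gene (horizontal axis, distance from the start in kb, direction of transcription to the right), with 1 row for each of the 12 pooled lists. H3K27me3 spans the start in every list at all genes but Hmga1, where both female regions end 1165 and 765 bp before it, and the Igf2bp3 start has H3K27ac in both DKO lists and in neither control list.

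The LIN28 genes, which encode the RNA-binding proteins that block let-7, stayed inside H3K27me3 and without H3K27ac at their starts. Lin28a (chr4:133559245-133574756, minus strand, 15.512 kb) was 100% covered in all 4 lists, by regions of 97.6, 98, 26 and 96 kb in control male, DKO male, control female and DKO female liver. Its 1 merged H3K27ac site was called in all 4 lists, 17541 bp from the start and beyond its 3′ end, where it reaches the neighbouring gene Dhdds. H3K4me1 was called 204 bp from the Lin28a start in DKO male liver alone.

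Lin28b (chr10:45096426-45206201, minus strand, 109.776 kb) was the gene whose coverage rose in DKO male liver. Coverage was 34.8% in control male, 64.3% in DKO male, 31.1% in control female and 51.6% in DKO female liver. Both DKO values lie above both control values. The difference was 29.5 points in males, where 9.86% of all genes rose by 25 points or more, and 20.4 in females. With the widest 50% of regions the male difference was 11.7 points. In males both the region over the start and the region at the 3′ end reached further into the gene in DKO liver, and a further region of 19.6 kb was called between them. In females the region at the 3′ end, 28 kb in control and 23.2 kb in DKO liver, lay further into the gene. The region over the start was 43.6, 56.4, 48 and 46.4 kb wide in control male, DKO male, control female and DKO female liver. No H3K27ac peak was called within 10 kb of Lin28b in any list. H3K4me1 peaks numbered 2, 4, 3 and 5, and 1 site over the start was called in all 4 lists. The RefSeq start lies 16194 bp inside the GENCODE span used here, and it too had no H3K27ac peak.

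The HMGA genes encode architectural chromatin proteins that are abundant in embryonic and tumour cells. Hmga1 (chr17:27693565-27700619, plus strand, 7.055 kb) differed by sex and not by genotype, with coverage of 100% in both male lists and 0% in both female lists. In males it lay inside a region of 218.4 kb in control and 201.2 kb in DKO liver. In females the nearest region ended 1165 bp before the start in control and 765 bp before it in DKO liver. H3K27ac was called within 1 kb of the Hmga1 start in every list. In control male liver the peaks flanked the start, at -712 and 194 bp. Of the 250 upstream bases shown above, 0 lay in an H3K27ac peak in control male, 250 in DKO male, 250 in control female and 154 in DKO female liver. There were 4, 5, 6 and 6 H3K27ac peaks and 5, 6, 5 and 5 H3K4me1 peaks in control male, DKO male, control female and DKO female liver. Of its 6 merged H3K27ac sites 3 were in all 4 lists, and 2 of these 3 lie beyond its 3′ end at neighbouring genes.

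Hmga2 (chr10:119798331-119913525, minus strand, 115.195 kb), a let-7 target, was 96.5% covered in control male, 90.9% in DKO male, 73.2% in control female and 91.0% in DKO female liver. Control female liver was the low list, and no genotype difference reached 25 points. The H3K27ac peaks numbered 3, 3, 2 and 2, and the 2 sites present in all lists lay in intron 3, 84602 and 58118 bp from the start. A peak of 244 bp over the start was called in DKO male liver alone, with 182 bases in the upstream sequence shown above. H3K4me1 peaks numbered 9, 6, 5 and 5. Hmga2 was also the 1 gene of the 9 with an H3K27ac peak lost in male liver. Such a loss was found at 9.55% of all genes and at 23.8% of genes of 100 kb or more.

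Prom1 and Epcam encode surface proteins of progenitor and biliary cells. Prom1 (chr5:44384864-44493271, minus strand, 108.408 kb) was 94.8% covered in control male, 76.0% in DKO male, 17.7% in control female and 32.8% in DKO female liver. The 2 male lists lie above the 2 female lists, and the genotype difference was -18.8 points in males and 15.1 in females. H3K27ac peaks numbered 2, 6, 5 and 7, and H3K4me1 peaks 5, 5, 8 and 8. H3K27ac within 1 kb of the start was called in all lists but control male, at 346, 523 and 582 bp inside the gene in DKO male, control female and DKO female liver. A site in intron 5, 51003 bp from the start, was called in both DKO lists and neither control list. Gm16401 overlaps the Prom1 start on the other strand, and peaks there cannot be assigned to one of the pair.

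Epcam (chr17:88035319-88050446, plus strand, 15.128 kb) was 100% covered in control male, DKO male and DKO female liver and 70.6% covered in control female liver. The difference of 29.4 points between the female lists passed 25 points, as it did at 6.31% of all genes. It arose where the region of control female liver ended inside the gene, so that the start was covered in all 4 lists. No H3K27ac peak was called within 10 kb of Epcam in any list. H3K4me1 peaks numbered 1, 2, 1 and 2, all within 1 merged site of 1403 bp at the start. Among the 6 cholangiocyte markers, Krt7, Krt19, Sox9 and Spp1 were 100% covered in all 4 lists, and Krt7, Krt19 and Cftr had no H3K27ac peak in any. The 6 together had 6, 16, 15 and 13 H3K27ac peaks, and the part of these cells in the values at Prom1 and Epcam was not tested.

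**Figure D4:**
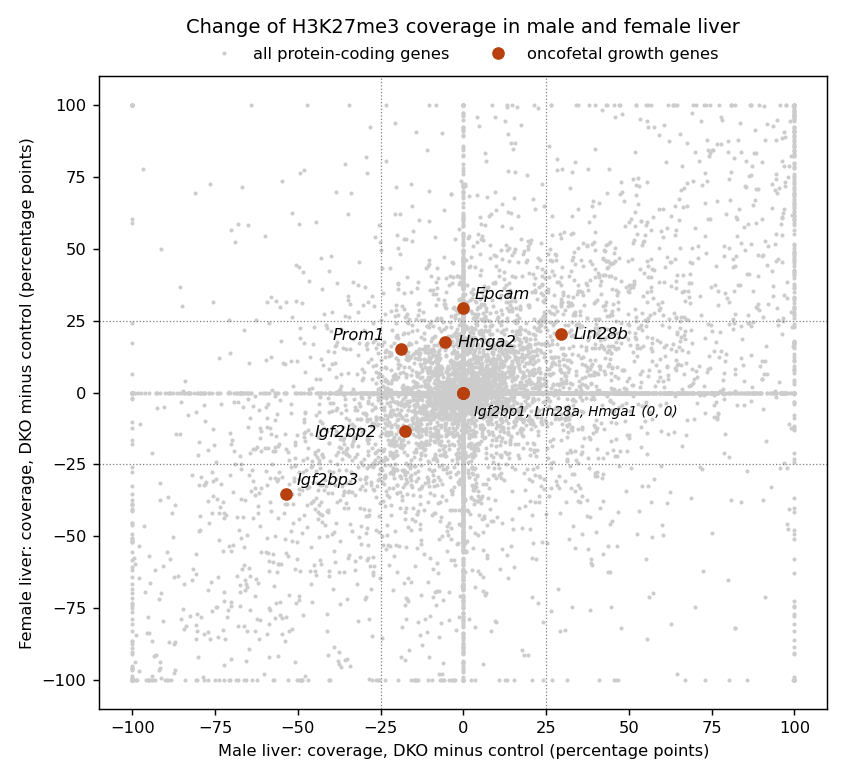
Difference of H3K27me3 coverage, DKO minus control in percentage points, in male (horizontal axis) and female liver (vertical axis), with 1 grey point for each of the 22225 protein-coding genes and orange points for the 9 growth genes; dotted lines are at 25 points in either direction. Igf2bp3 lies at -53.6 and -35.1, Lin28b at 29.5 and 20.4, and Igf2bp1, Lin28a and Hmga1 lie at 0 in both sexes.

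Between the sexes in control liver, coverage was higher in males by 25 points or more at 3 of the 9 genes, namely Hmga1 (100 points), Prom1 (77.1) and Epcam (29.4), beside 6.40% of all genes. It was lower in males by that much at 0 of the 9, beside 5.27% of all genes. All 9 are autosomal, and among the 21281 autosomal genes the shares were 6.68% and 2.38%. Igf2bp2 (24.9 points), Igf2bp3 (23.7) and Hmga2 (23.3) fell just short of the threshold. Igf2bp1 and Lin28a differed by 0 points and Lin28b by 3.64. On the autosomes, called regions covered 765 Mb in control male and 630 Mb in control female liver. The part of this in the sex difference was not tested.

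Across all 9 genes H3K27ac peaks numbered 11 in control male, 35 in DKO male, 23 in control female and 36 in DKO female liver. In males 7 genes had an H3K27ac peak in DKO liver without a control counterpart, as had 47.6% of all genes. One of the 7 is Lin28a, whose gained peak lies in the site shared by all 4 lists, and merging peaks within 1 kb gave 6 genes. In males 1 gene lost a peak, beside 9.55% of all genes. With equal numbers of the widest peaks of each list, 4 genes gained and 4 lost a peak in males, beside 23.0% and 22.2% of all genes. In females 5 genes gained a peak, beside 28.8%, and 4 genes lost one, beside 31.8%. Long genes collect more peaks, and among the 2399 genes of 100 kb or more the shares that gained a peak were 73.7% in males and 61.1% in females. Of the 5 growth genes in this class, 4 gained a peak in males and 3 in females. The shares of these long genes that lost a peak were 23.8% in males and 56.0% in females. Of the 5 growth genes, 1 lost a peak in males and 3 in females. The 4 shorter genes were not set beside genes of their own length. Within 1 kb of the start H3K27ac was called at 1, 5, 3 and 4 of the 9 genes in control male, DKO male, control female and DKO female liver, beside 44.9%, 51.9%, 50.9% and 51.5% of all genes. Lin28a, Lin28b, Igf2bp1 and Epcam had none there in any list.

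**Figure D5:**
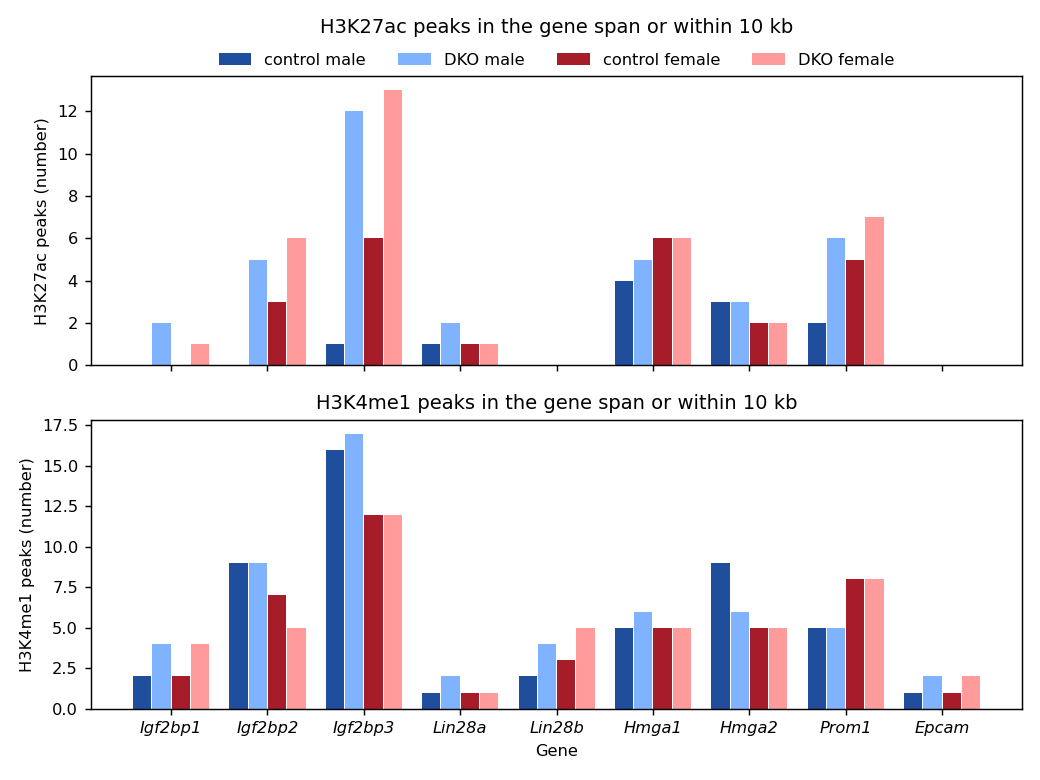
Number of H3K27ac peaks (upper panel) and H3K4me1 peaks (lower panel) in the span of each gene or within 10 kb of it, 1 bar for each of the 4 pooled lists of a mark. Igf2bp3 has 1, 12, 6 and 13 H3K27ac peaks and 16, 17, 12 and 12 H3K4me1 peaks, and Lin28b and Epcam have no H3K27ac bar.

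H3K4me1 was called within 10 kb of all 9 genes in every list, a count for which no share over all genes was computed. Over the 9 genes there were 50 peaks in control male, 55 in DKO male, 44 in control female and 47 in DKO female liver. In males 7 genes gained and 4 lost a peak, beside 44.7% and 45.8% of all genes. In females 7 gained and 6 lost one, beside 39.8% and 46.4%. Among genes of 100 kb or more the shares were 77.1% gained and 71.4% lost in males and 72.8% and 70.4% in females, and of the 5 growth genes in this class 4 gained and 4 lost a peak in males and 5 and 5 in females. Within 1 kb of the start H3K4me1 was called at 8, 8, 8 and 5 genes, beside 47.1%, 45.8%, 39.9% and 36.2% of all genes. The count of 5 is from the DKO female list, which rests on 3 livers and is the shortest of its mark with 51417 peaks. It lacked the mark near the starts of Igf2bp2, Igf2bp3 and Prom1, which had it in both control lists and had H3K27ac there in this list. At Igf2bp3 the DKO male list, of 4 livers and 67913 peaks, lacked it too. Starts inside H3K27me3 with H3K27ac within 1 kb in the same list were found at 1, 5, 2 and 3 of the 9 genes, and such starts were 22.0%, 43.8%, 33.5% and 37.3% of all starts in H3K27me3. In pooled whole liver, both marks in the same cells and each mark in other cells cannot be told apart.

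Of 24 other genes of the let-7, Lin28 and Igf axis, 1 fell by 25 points or more in males and 1 in females, and 5 and 2 rose. Ccnd1, which encodes cyclin D1 and is a let-7 target, went from 100% to 54.1% in male liver. Arid3a, a DNA-binding protein, went from 100% to 0% in female liver and stayed at 100% in both male lists. Irs2, an adaptor of insulin and Igf signalling, rose from 17.8% to 100% in males and from 0% to 100% in females. Igf2 itself was 100% covered and without H3K27ac in all 4 lists.

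Among 20 further genes of fetal liver, progenitors and liver tumours, 1 fell and 4 rose in males, and 0 fell and 1 rose in females. Tspan8, a tetraspanin, went from 77.9% to 0% in males, and from 79.1% to 69.1% in females. Afp, the fetal serum protein and tumour marker, rose from 0% to 100% in both sexes, with 3, 6, 5 and 4 H3K27ac peaks in control male, DKO male, control female and DKO female liver. Tert, the catalytic subunit of telomerase, rose from 0% to 100% in males and was listed at 0% in both female lists. In males the 1 of 24 and 1 of 20 that fell stand beside 6.07% of all genes, and the 5 of 24 and 4 of 20 that rose beside 9.86%. In females the 1 of 24 and 0 of 20 that fell stand beside 7.57%, and the 2 of 24 and 1 of 20 that rose beside 6.31%. All 6 hepatocyte markers had H3K27ac within 10 kb in every list, a count for which no share over all genes was computed. They were 0% covered in both control lists, where the median over all genes was also 0%. In DKO liver 2 of the 6 rose by 25 points or more in both sexes. Apoa1 rose to 100% in males and 50.3% in females, and Hnf4a to 89.1% and 71.0%. Rises of that size were seen at 9.86% of all genes in males and 6.31% in females.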

How the data were processed

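Livers of 7 week old control and double knockout (DKO) mice were profiled by ChIP-seq with 50 nt paired-end reads. As the study's methods and the submitters' processing notes state, the authors concatenated the reads of a group, mapped them to mm9 with Bowtie2 (2.3.2) and called peaks with MACS2 (2.1.1, default parameters) for the activating marks and regions with SICER (1.1, window 400 bp, gap 2400 bp) for H3K27me3. The 12 deposited lists give positions only. The labels give 3 livers for H3K4me1 in DKO female liver, where the methods give 4.

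Positions in the lists count from 0 and those printed here from 1, and SICER ends were moved by 1 base. All peaks lay within the chromosomes of NCBIM37, which is mm9. Gene spans came from GENCODE (release M1). Coverage is the percent of a span in regions, and 25 percentage points count as a change. A peak without a partner sharing 1 bp or more in the compared list is gained or lost. The scripts (Python 3.11.15, matplotlib 3.10.9) recovered 300 of 300 removed and 200 of 200 added simulated peaks. The genes and gene lists were chosen with earlier results of these data known. Named outside the 9 genes were, in each sex, up to 2 genes with the largest fall and 2 with the largest rise of at least 25 points from the 2 other lists, longer genes first. Igf2, neighbouring genes and cell type markers were named besides. With 1 pooled list per group, no test was made.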

Additional observations from a re-analysis of the deposited data

Results flagged for a closer look

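H3K27me3 coverage moved in opposite directions in male and female liver at 2 of the 9 genes. At Hmga2 the difference between DKO and control liver was -5.62 percentage points in males and 17.8 in females. At Prom1 it was -18.8 in males and 15.1 in females. None of these values reached 25 points, and the difference between the sexes was not tested, since each rests on 1 pooled list per group.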

How the results depend on the processing

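Igf2bp3, Lin28b and Epcam gave no difference (0 points) when only the 2 kb on each side of the start was scored, and the counts of genes with lower or higher coverage were then 0 in both sexes, with 1 gene higher in control male than control female liver. Counted over these windows, 8 genes were at least 50% covered in control female and 8 in DKO female liver. With a threshold of 50 points, Igf2bp3 in males was the one gene of the 9 that differed between genotypes, and the counts of higher coverage in males and of lower and higher coverage in females were 0. With the widest 50% of regions, the counts of lower and higher coverage in males were 0, and Igf2bp3 differed by -23.4 points in males and -26.2 in females and Lin28b by 11.7 in males. Counting genes as covered from 25% gave 7 in control female liver. With equal numbers of the widest H3K27ac peaks, 4 genes gained and 4 lost a peak in males and 3 gained one in females (23.0%, 22.2% and 17.9% of all genes). Within 50 kb, 8 genes gained and 7 lost an H3K27ac peak in females and 7 lost an H3K4me1 peak in males (52.7%, 55.4% and 68.6%). Inside the span alone, 2 lost an H3K27ac peak in females (20.7%). The causes were not tested. The other 76 of 96 recomputed counts stayed within 1.5 times, and no called difference changed sign. Every value rests on pooled peak calls of unknown depth, so a missing peak may be one that was not called. No paired analysis was possible because the livers of a group were pooled into 1 list, and for the same reason no liver could be left out.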
